A study of Mus musculus with 310 samples.

Results

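Sebocytes, the lipid-filled cells of the sebaceous gland, were followed through 9 genes of lipid handling: Scd1, Mgst1, Soat1, Far2, Elovl6, Plin2, Cidea, Cers4 and Fasn. The genes were chosen by name, and all 9 had a row among the 14068 genes of the count table. All 9 are also among the genes with which the study marked its sebaceous cluster in young Lrig1-lineage cells, which are not part of the samples described here. In the GENCODE annotation of GRCm38 they are protein-coding genes: Fasn at chr11:120805846-120824547 (minus strand), Elovl6 at chr3:129532355-129638495 (plus), Scd1 at chr19:44394455-44407879 (minus), Soat1 at chr1:156424525-156474331 (minus), Far2 at chr6:148047259-148182758 (plus), Plin2 at chr4:86648386-86670060 (minus), Cers4 at chr8:4493026-4531680 (plus), Mgst1 at chr6:138140316-138156755 (plus) and Cidea on chromosome 18.

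The cells came from tail epidermis of mice of a mixed CBA C57BL/6 strain. All of them carried Lrig1-EGFP-ires-CreERT2, in which the Lrig1 locus drives the recombinase, together with the reporter Rosa26-fl/STOP/fl-tdTomato, and received hydroxytamoxifen once, on the tail skin, so that tdTomato marks cells that had expressed Lrig1 and their progeny. Sorted tdTomato-positive cells were sequenced by Smart-seq2, which covers polyadenylated RNA along its length. At 38 weeks the labels give 2 groups, 38w (145 cells, replicates RepI and RepL) and 38wUW (165 cells, replicates RepM and RepN). What UW stands for, and whether 38w or 38wUW is the wounded group, is not given in them, so a difference is stated only as 38w against 38wUW. RepI lay on the plates C114 and C118, RepL on C119, RepM on C128 and RepN on C129. Neither the number of mice behind a replicate nor whether replicates were separate mice is given in the labels, so the spread between replicates may be technical in part.

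Cells held 11711 to 721564 estimated reads, with a median of 61294, and the sums per replicate ran from 5472070 to 12946742 reads. Plate C114 stood apart: in its median cell 31.8% of the reads were of ribosomal protein genes, against 3.60% to 6.80% on the other 4 plates. C118 had the highest mitochondrial share, with a median of 33.8% of reads against 2.77% to 18.3% elsewhere, and the part of either in the values of RepI was not tested. Since C114 held 53 of the 70 cells of RepI, levels of RepI are also given by plate for the 9 genes. The labels call the cells keratinocytes, and the 10 keratinocyte markers read (among them Krt14, Krt5 and Krt10) summed to 17671 to 43819 counts per 1000000 reads (CPM) on the 5 plates. Of the 12 sebocyte markers looked for, 7 had a row in the table used here (Pparg, Dgat2, Mc5r, Apoc1, Acsbg1, Gpam and Plin5).

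Sebocytes make sebum by building fatty acids, lengthening and desaturating them, and joining them to glycerol, cholesterol or fatty alcohols as triglycerides, sterol esters and wax esters, which are stored in droplets until the whole cell breaks down. In the hair follicle, the gland and its duct are renewed by cells of a zone above the bulge that express Lrig1. Fasn (fatty acid synthase) builds palmitate, Elovl6 lengthens it, and Scd1 introduces a double bond into the product. Soat1 esterifies cholesterol and Far2 reduces fatty acyl-CoA to the fatty alcohols of wax esters. Plin2 coats lipid droplets, Cidea takes part in droplet growth, Cers4 is a ceramide synthase, and Mgst1 is a membrane-bound glutathione transferase that detoxifies lipid peroxides.

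The reads of Soat1 lay mostly in few cells, and those of Fasn and Plin2 were spread more widely. A relation between how the reads fell and the sequence upstream was not tested. CCAAT occurred upstream of Soat1, Fasn and Plin2 alone among the 7 genes searched, and these 3 sequences are shown. Each is the 250 bases before the start of the gene in RefSeq (GRCm38.p6), 5′ to 3′ on the strand of the gene, with CCAAT and its reverse complement ATTGG in capitals. The windows are chr1:156474329-156474578 (minus strand) for Soat1, chr11:120824548-120824797 (minus strand) for Fasn and chr4:86670060-86670309 (minus strand) for Plin2.
Soat1: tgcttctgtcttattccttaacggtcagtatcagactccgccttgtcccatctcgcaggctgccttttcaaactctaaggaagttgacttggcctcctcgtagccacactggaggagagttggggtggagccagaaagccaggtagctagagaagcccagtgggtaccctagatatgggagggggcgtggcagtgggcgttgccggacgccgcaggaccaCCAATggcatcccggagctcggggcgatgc
Fasn: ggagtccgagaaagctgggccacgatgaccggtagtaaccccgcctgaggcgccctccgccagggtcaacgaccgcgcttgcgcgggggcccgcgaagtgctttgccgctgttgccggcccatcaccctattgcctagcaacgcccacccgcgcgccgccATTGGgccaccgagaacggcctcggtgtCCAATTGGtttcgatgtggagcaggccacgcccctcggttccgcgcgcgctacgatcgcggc
Plin2: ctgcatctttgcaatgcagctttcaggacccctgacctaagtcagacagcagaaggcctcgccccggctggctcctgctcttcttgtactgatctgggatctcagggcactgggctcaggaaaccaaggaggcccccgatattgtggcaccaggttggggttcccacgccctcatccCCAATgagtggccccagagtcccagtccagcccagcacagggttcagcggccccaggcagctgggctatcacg

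The letters were searched on both strands in the windows of 7 of the 9 genes. Windows of Scd1 and Cidea were not searched. CCAAT was found once in the windows of Soat1 and Plin2 and 3 times in that of Fasn, in which 2 of the matches overlap on opposite strands, and 33.8% of the 32851 windows of all genes held it. GGGCGG, the GC box, was found in the windows of Far2, Cers4 and Mgst1 and in 32.7% of all windows. TCACNCCAC, a site form of the sterol regulatory factors, was found in no window of the 7 genes and in 1.05% of all windows, and the E-box CACGTG likewise in none, against 6.02% of all windows. None of the letters searched was thus shared by the windows of all 7 genes. A match or its absence says nothing here about the binding of a factor.

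A few cells held most of the reads of several of the genes. Of 310 cells, 3 had a read of all 9, 2 of them from RepN (38wUW) and 1 from RepL (38w). These 3 cells contributed 0.772% of all reads in the table. They held 89.9% of the reads of Far2, 84.3% of Soat1, 53.5% of Cidea, 52.3% of Elovl6, 44.4% of Scd1, 39.1% of Plin2, 29.7% of Cers4, 23.2% of Mgst1 and 15.8% of Fasn. The wax alcohol and sterol ester genes thus had the highest shares in these cells, and fatty acid synthase the lowest. As the 3 cells were chosen for a read of all 9 genes, the choice itself raises the share of genes read in few cells.

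**Figure D1:**
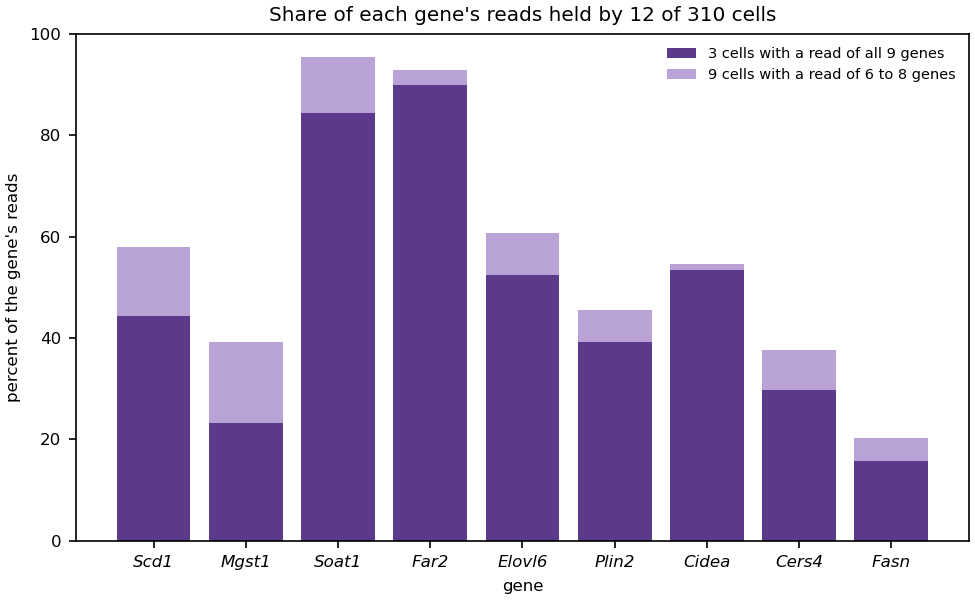
Percent of the reads of each gene, summed over 310 cells, that lay in the 3 cells with a read of all 9 genes (dark) and in the 9 cells with a read of 6 to 8 of them (light). Soat1 and Far2 reach 95.5% and 92.9% in these 12 cells together, and Fasn 20.2%.

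The RepN cell with the highest levels gave 4.38% of its 115778 reads to the 9 genes. Its Scd1 stood at 14087 CPM, Mgst1 at 12930, Soat1 at 6547, Elovl6 at 3757, Cers4 at 2833, Plin2 at 1753, Far2 at 881, Cidea at 665 and Fasn at 354 CPM. The other RepN cell gave 2.38% of 24923 reads, with Mgst1 at 10512, Scd1 at 6861, Cers4 at 1605, Far2 at 1083, Plin2 at 1003, Soat1 at 1003, Cidea at 883, Elovl6 at 722 and Fasn at 120 CPM. In all 3 cells, desaturase and glutathione transferase were the highest of the 9, and their order among the rest differed from cell to cell. The RepL cell gave 2.13% of 121358 reads, with Scd1 at 5808, Mgst1 at 5504, Plin2 at 2991, Soat1 at 2554, Elovl6 at 1714, Far2 at 939, Cers4 at 758, Fasn at 593 and Cidea at 445 CPM. Its Plin2 and Fasn were above those of both RepN cells, and its Cers4 and Cidea were below them. For comparison, the median cell gave 0.0259% of its reads to the 9 genes, and the highest of the other 307 cells, on C118 of RepI, gave 1.11%.

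None of the 3 cells was named with a suffix in the labels, and their 3271 to 5622 detected genes lay within the 1996 to 5840 of all cells. On genes that did not enter the choice, they were also alike. Of the 86 other genes of the sebaceous cluster of the study that had a row, they held a read of 76 to 83, whereas the median over the other cells was 34 and the highest 69, and by the mean of those 86 genes the same 3 cells ranked 1 to 3 of 310. Of the 7 sebocyte markers, 4 were read in all 3 cells: Mc5r at 107 to 631, Apoc1 at 112 to 404, Acsbg1 at 40.1 to 247 and Pparg, the lipid regulator of sebocytes, at 40.1 to 214 CPM. Pparg was read in 21 of the other 307 cells (6.84%), and Mc5r and Apoc1 in 222 and 220 of them. Dgat2 and Gpam were read in 2 of the 3 cells and Plin5 in none. Sterol synthesis genes were high in them as well, with Hmgcs1 at 1895 to 3325 CPM against a median of 80.5 in the other cells, and Idi1 at 1096 to 3913 CPM against a median of 0. Krt5, Krt15, Krt1, Krt10 and Krt17 had no read in any of the 3, Krt14 stood at 80.2 to 931 CPM against a median of 1713, and Krt79, a keratin of the sebaceous duct and infundibulum, at 562 to 1805 CPM. The 3 immune markers read had no read in them. The 7 fibroblast and 3 adipocyte markers read reached at most 40.1 and 321 CPM. Plin1 and Fabp4 are also lipid genes. The adipocyte markers Adipoq, Lep, Retn, Cfd and Ucp1 were looked for but had no row in the table used here. The part of adipocyte RNA was not tested.

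A wider set of cells carried part of the 9 genes. Beyond the 3 cells, 1 cell had a read of 8, 1 of 7 and 7 of 6 of them, so that 12 cells had at least 6 (5 of RepN, 4 of RepL, 2 of RepM and 1 of RepI). At the other end, 22 cells had none and the median cell had 3. The genes that were missing from the 9 cells with 6 to 8 were mostly Far2, at 0 in 8 of them, and Cidea, at 0 in 7. The RepI cell, on C118, had Mgst1 at 7355, Scd1 at 1552 and Soat1 at 1343 CPM, but no read of Far2, Elovl6 or Cidea. By the 86 other sebaceous genes, 5 of these 9 cells ranked 4 to 8, and the remaining 4 ranked from 35 to 211.

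**Figure D2:**
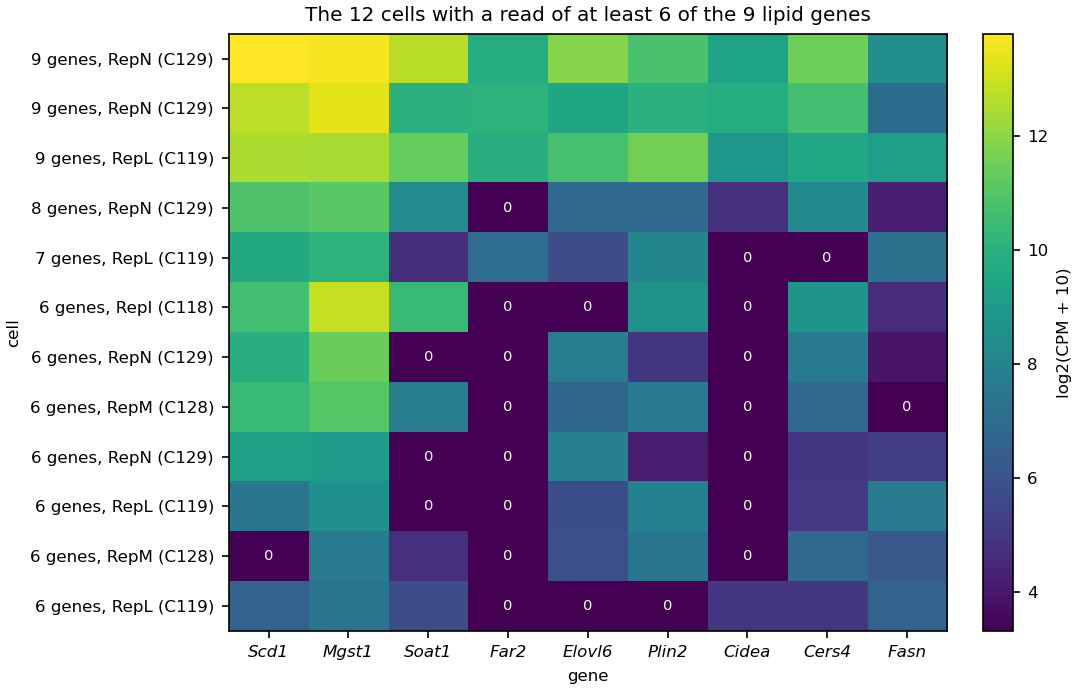
Level of each gene, as log2(CPM + 10), in the 12 cells with a read of at least 6 of the 9 genes, 1 row per cell, with the number of genes read, the replicate and the plate on the left and 0 where a cell had no read. Only the upper 3 rows are filled throughout, and Far2 and Cidea are the genes most often at 0 below them.

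Over all 310 cells the genes differed in how widely they were read. Mgst1 was found in 208 of 310 cells (67.1%), Scd1 in 152 (49.0%), Fasn in 41.3% of the cells, Plin2 in 105 (33.9%) and Cers4 in 100 (32.3%). Elovl6 was found in 51 cells (16.5%), Soat1 in 46 (14.8%), Cidea in 14 (4.52%) and Far2 in 13 (4.19%). Of the reads of Fasn, 90% lay in 71 cells, and of those of Mgst1 in 72. In contrast, 4 cells were enough for 90% of the reads of Soat1 or Far2, and 5 for those of Cidea. Per kilobase of the longest annotated transcript, over all cells, Mgst1 was highest at 264 CPM, then came Scd1 at 34.4, Plin2 at 23.6, Cidea at 7.56, Elovl6 at 6.25, Cers4 at 4.82, Soat1 at 4.56, Far2 at 2.29 and Fasn at 2.15 CPM. Mgst1 was the highest in each of the 4 replicates, and its lowest replicate (147 CPM per kilobase) was above the highest of Scd1 (51.7). Plin2 (lowest replicate 15.8) was likewise above Cidea (highest replicate 14.1), and the ranges over replicates of each other pair of neighbours in that order overlapped.

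Within their protein families the 9 genes were not always the most abundant, on the same scale per kilobase over all cells. Mgst1 exceeded Mgst3 (46.7 CPM) and Mgst2 (41.4). Soat1 exceeded Soat2 (0.380), and Plin2 exceeded Plin5 (1.01) and Plin1 (0.324). The ranges over replicates of Plin2 and Plin3 (11.8) overlapped, with Plin3 at 16.8 and Plin2 at 15.8 CPM per kilobase in RepM. The ranges of Scd1 and Scd2 (23.4) overlapped, while Scd3 and Scd4 were at 0.305 and 0.686. Because the Scd genes are close copies of each other, the split of reads between them is uncertain. Far1, the widely expressed fatty acyl-CoA reductase, stood at 14.1 CPM per kilobase against 2.29 for Far2, and was above Far2 in each of the 4 replicates. The 3 cells with all 9 genes have a read of Far2 by choice. None of them had a read of Far1, which was read in 84 of the other 307 cells (27.4%). Elovl6 was below Elovl4 (41.2), Elovl7 (29.3) and Elovl1 (26.4), elongases of longer chains, and near Elovl5 (7.31). Cers5 (24.8) was the highest ceramide synthase, above Cers2 (4.96), Cers4, Cers3 (4.24) and Cers6 (1.69).

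To see which of the genes went together, log2(CPM + 10) was centred on each plate and compared between genes across the 310 cells. These correlations are descriptions, since cells share plates and depth and the counts are sparse. The 36 pairs had Pearson's r between 0.10 and 0.66, with a median of 0.31. The highest were Far2 with Cidea (0.66), Soat1 with Cidea (0.61) and Soat1 with Far2 (0.60), and the lowest Mgst1 with Cers4 (0.10) and with Fasn (0.12). Without the 3 cells that had all 9 genes, the median over the 36 pairs was 0.08, and Far2 with Cidea, Soat1 with Cidea and Soat1 with Far2 were at −0.04, 0.19 and 0.01. Far2 was read together with Cidea in these 3 cells only, and with Soat1 in 4 cells. As the 3 cells were chosen for a read of all 9 genes, the fall of these pairs follows from that choice. Soat1 with Plin2 went from 0.43 to 0.25. The droplet coat gene Plin2 and Mgst1 changed little, from 0.44 to 0.37, and Scd1 with Mgst1 went from 0.34 to 0.27. Mgst1 was read in 87 of the 105 cells with Plin2 (82.9%), which are 41.8% of the cells with Mgst1.

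**Figure D3:**
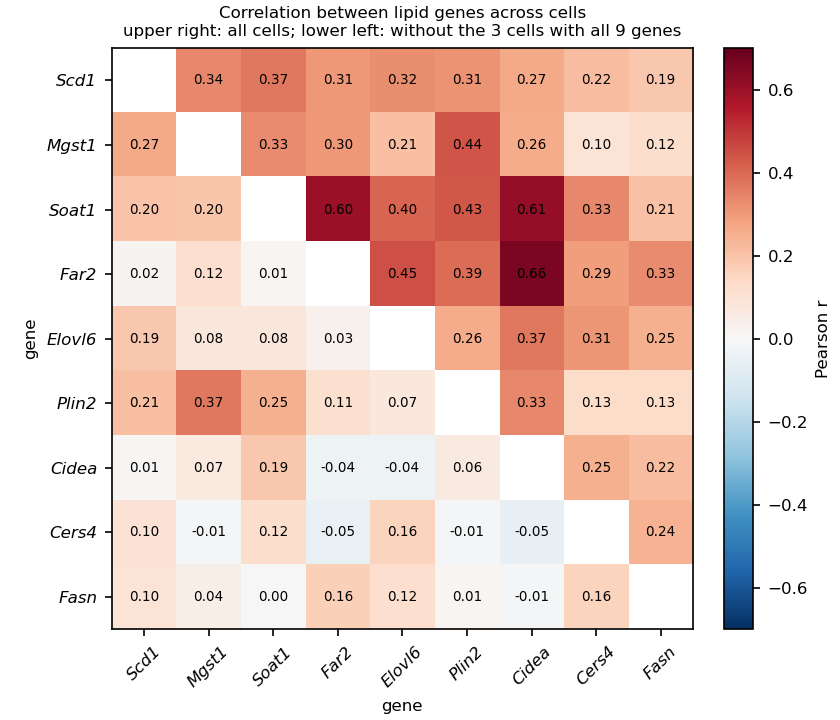
Pearson's r between the plate-centred log2(CPM + 10) of each pair of genes, over all 310 cells (upper right) and over the 307 cells without the 3 that had a read of all 9 (lower left). Far2 with Cidea falls from 0.66 to −0.04, which follows from the choice of the 3 cells, the only ones with a read of both. Mgst1 with Plin2 goes from 0.44 to 0.37 and is the highest pair in the lower left.

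The mean of the 9 genes was then compared with every gene read in at least 10% of the cells. The 10 of 9212 genes with the highest r included Ermp1 (0.50), Adh1 (0.50), Ncoa7 (0.48), Coq6 (0.45), Tecr (0.43), Ldhb (0.42), Eci2 (0.41), Aadac (0.41) and Gk5 (0.40). Among them, Tecr completes each round of chain elongation and Eci2 helps to break down unsaturated fatty acids. Of the 10 genes, 8 are in the study's sebaceous list, of which 81 genes (0.879% of those compared) could be compared. Without the 3 cells, 4 of the 10 were still among the highest 10, among them Adh1, Ermp1 and Tecr with r between 0.34 and 0.42. By rank correlation only Tecr and Ermp1 were, and ribosomal protein genes took 6 of the 10 places. At the other end of the scale were Dsg3 (−0.30), Anxa1 (−0.30), Aqp3 (−0.29), Klf4 (−0.28) and Krt15 (−0.26), genes of the interfollicular and follicular keratinocytes.

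The mean of the 9 genes followed the mean of the 86 other sebaceous genes at r = 0.82 over all cells, and at 0.66 without the 3 cells. By plate, r was 0.42 on C114, 0.77 on C118, 0.83 on C119, 0.67 on C128 and 0.90 on C129, so C114 had the lowest value here too. The mean of the 9 genes and the log10 of the reads per cell had r = −0.02.

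The groups were compared on the reads of each replicate, summed over its cells. In such sums, fewer cells with a gene and less RNA of it per cell cannot be told apart. Of the 11760 genes tested with edgeR's quasi-likelihood test (n = 2 against n = 2), 0 passed an adjusted p of 0.05 (0%), and 949 (8.07%) had an unadjusted p below it. DESeq2 called 83 genes (0.706%). None of the 9 lipid genes was called by either, and none had an unadjusted p below 0.05 in edgeR. Both 38w replicates were above both 38wUW replicates for 2 of the 9 genes (Fasn and Plin2), when this held for 12.6% of all tested genes, and both were below for 0 of the 9, against 26.2% of all genes. In either direction, 2 of the 9 did not overlap, against 38.8% of all genes tested. By replicate, other measures of the libraries separated the groups as well. The 7 fibroblast markers summed to 289 and 136 CPM in 38w and to 55.3 and 32.8 CPM in 38wUW, and the 7 sebocyte markers to at least 225 CPM in 38w and at most 167 CPM in 38wUW. The median mitochondrial share of reads was 4.28% and 9.69% in 38w and 14.6% and 18.3% in 38wUW. On C118 of RepI, however, the fibroblast markers summed to 52.9 CPM, below RepM, and the sebocyte markers also lay below RepM. The median mitochondrial share on C118 was 33.8%, above both 38wUW replicates. With RepI read from C118 alone, none of these measures separated the groups. The part of these measures in the values of Fasn and Plin2 was not tested. The median log2 fold change was 0.18 for the 9 genes and 0.12 for all genes tested.

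Among the genes of fatty acid synthesis, Fasn stood at 35.4 CPM (RepI) and 28.4 CPM (RepL) in 38w, against 20.1 CPM (RepM) and 8.81 CPM (RepN) in 38wUW. The 2 groups did not overlap, but the plates of RepI were far apart, at 41.5 CPM on C114 and 6.98 on C118. The log2 fold change was 1.39 ± 0.93 (SE) at an edgeR adjusted p of 0.70. It was positive under every alternative tried, but fell to 0.54 with RepI from C118 only and to 0.90 without RepN, and was 2.13 without RepM. Elovl6 was at 10.4 and 42.4 CPM in 38w and at 18.1 and 63.1 in 38wUW, which gave −0.38 ± 0.97 (SE) on the log2 scale, at an edgeR adjusted p of 0.93. Its RepI plates were at 12.5 CPM (C114) and 0.581 CPM (C118). The highest cell of RepL, 1 of the 3 described above, held 84.6% of its Elovl6 reads, and the highest of RepN 53.2%. Scd1 was at 71.2 and 219 CPM in 38w and at 83.0 and 250 in 38wUW, which gave 0.05 ± 0.91 (SE) on the log2 scale, at an edgeR adjusted p of 0.99. Within RepI it was at 32.5 CPM on C114 and 251 on C118, so the plates of that replicate were farther apart than any pair of replicates. The highest cell of RepL held 55.5% of its Scd1 reads, and that of RepN 50.4%.

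Soat1 and Far2, which make sterol esters and fatty alcohols, followed the replicates with the 3 cells rather than the groups. Soat1 was at 9.67 and 57.1 CPM in 38w and at 4.22 and 65.5 in 38wUW, and the cells with all 9 genes held 93.6% of its reads in RepL and 92.3% in RepN. In RepI, which had no such cell, 1 cell on C118 held 95.7% of the Soat1 reads, with a level of 52.9 CPM on that plate, and the 53 cells of C114 gave 0.381 CPM. Far2 was at 0.542 and 23.3 CPM in 38w and at 0.183 and 9.96 in 38wUW, and all of its reads in RepN came from those 2 cells. Far2 stood at 0.658 CPM on C114. On C118 no read of Far2 was found, and 0 of 17 thinned cells allows a share of cells of up to 17.6%, for counting error only. The log2 fold changes were 0.18 ± 1.14 for Soat1 (SE, edgeR adjusted p = 0.97) and 1.44 ± 1.55 for Far2 (SE, edgeR adjusted p = 0.81). Both turned negative when RepL was left out, to −1.51 and −2.96.

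Of the droplet genes, Plin2 was at 38.6 and 84.6 CPM in 38w and at 29.8 and 37.2 in 38wUW. The groups were apart by a small margin between RepI and RepN, and within RepI the level was 41.0 CPM on C114 and 27.3 on C118, the latter below both 38wUW replicates. One cell held 73.9% of the Plin2 reads of RepL. The log2 fold change was 1.12 ± 0.88 (SE) at an edgeR adjusted p of 0.74. It was positive under every alternative tried, from 0.54 without RepL to 1.57 without RepI. Cidea was at 3.80 and 10.2 CPM in 38w and at 15.7 and 8.03 in 38wUW, which gave −0.53 ± 1.09 (SE) on the log2 scale, at an edgeR adjusted p of 0.91. All Cidea reads of RepI were on C114 (4.62 CPM). RepM, the highest, had 98.8% of its Cidea reads in 1 cell that was not among the 3.

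Cers4 was at 53.1 and 44.8 CPM in 38w and at 22.5 and 50.3 in 38wUW, so the groups overlapped through RepN, in which 1 cell held 50.3% of the reads. Its log2 fold change was 0.68 ± 0.87 (SE) at an edgeR adjusted p of 0.84. It was positive under every alternative tried, but 0.23 without RepM and 1.36 without RepN, and 0.33 with equal weight per cell. Its RepI plates were at 55.1 CPM (C114) and 43.6 CPM (C118). Mgst1, the gene read in the most cells, was at 172 and 224 CPM in 38w and at 192 and 498 in 38wUW, which gave −0.55 ± 0.89 (SE) on the log2 scale, at an edgeR adjusted p of 0.87. Its RepI plates were at 112 CPM (C114) and 449 CPM (C118), and 1 cell held 63.9% of the reads of the latter.

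**Figure D4:**
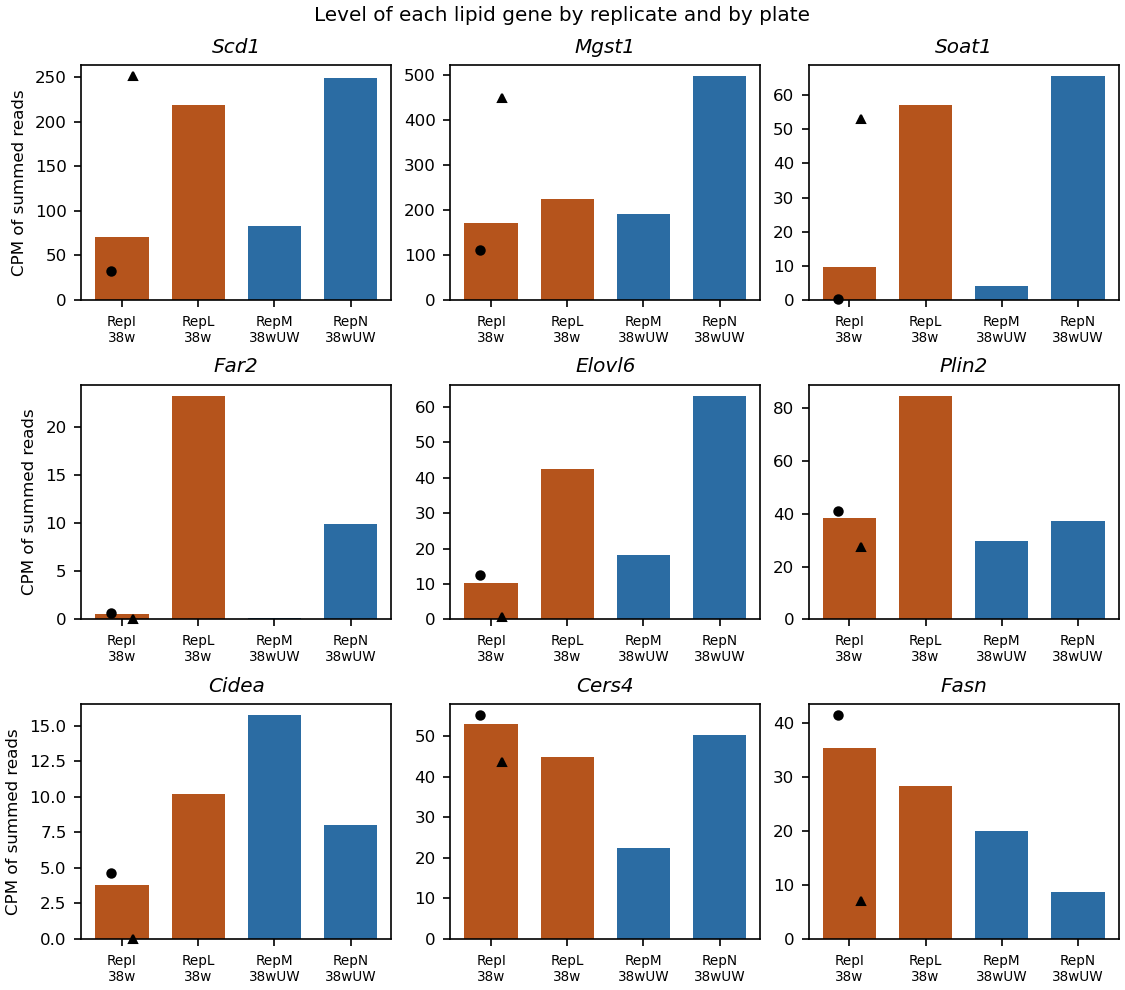
CPM of the summed reads of each gene in the replicates RepI and RepL of 38w (orange bars) and RepM and RepN of 38wUW (blue bars), with the plates of RepI as a circle (C114) and a triangle (C118). The groups do not overlap for Fasn and Plin2, and the triangle lies below both blue bars in each.

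**Figure D5:**
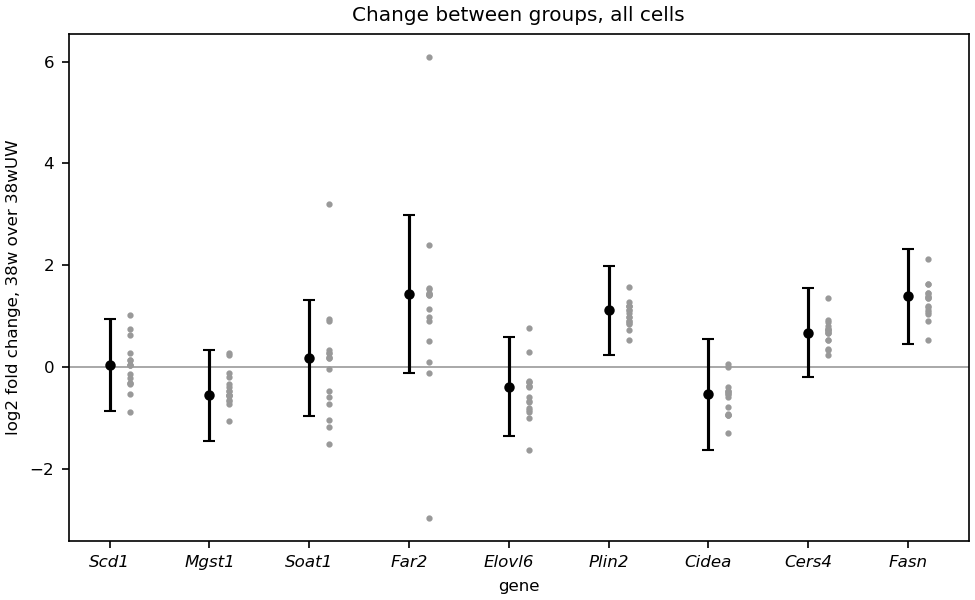
Log2 fold change of each gene, 38w over 38wUW, from edgeR over the sums of 2 against 2 replicates (black, with its SE) and under the alternatives (grey points). Fasn, Plin2 and Cers4 stay above 0 throughout, and the others have grey points on both sides of 0.

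The number of cells with a read gives each cell the same weight, so that no single cell decides it. Each cell was thinned to 20000 reads, which 277 cells reached (138 of 38w and 139 of 38wUW). Fasn was then read in 33.8% of the cells of RepI (Wilson 95% interval 23.7 to 45.7) and 25.7% of RepL (16.9 to 37.0). In 38wUW it was read in 25.0% of RepM (16.0 to 36.8) and 16.0% of RepN (9.40 to 25.9). Without thinning the values were 52.9%, 41.3%, 40.2% and 32.5%. Cers4 was read in 27.9% and 24.3% of 38w cells and in 17.2% and 21.3% of 38wUW cells. Without thinning it was read in 50% and 36% against 20.7% and 25.3%, a wider difference. For both genes the 38w replicates were the higher, by 9.27 and 6.85 percentage points on the mean, and the intervals of neighbouring replicates overlapped. When 1 replicate was left out, the difference ran from 4.77 to 13.8 points for Fasn and from 4.78 to 8.93 for Cers4. On C118 alone, Fasn was read in 17.6% of cells, between RepM and RepN, and with RepI from C118 only its difference was 1.18 points.

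Elovl6 and Mgst1 went the other way. Elovl6 was read in 2.94% and 11.4% of 38w cells and in 15.6% and 20% of 38wUW cells, a difference of −10.6 points (−6.38 without RepI and −14.9 without RepL). Mgst1 was read in 58.8% and 40.0% against 67.2% and 66.7%, a difference of −17.5 points (−26.9 without RepI and −8.10 without RepL). The 38w and 38wUW replicates of these 4 genes did not overlap, whereas those of Scd1 (36.8% and 47.1% against 42.2% and 36%), Soat1 (2.94% and 8.57% against 7.81% and 10.7%), Plin2 (25.0% and 17.1% against 29.7% and 24.0%), Far2 and Cidea (each at most 5.71%) did. Of all genes tested, 43.5% did not overlap on this measure, 10.2% with 38w higher (2 of the 9) and 33.4% with 38w lower (also 2). Over 4 replicates the exact two-sided permutation test cannot give a p under 0.33, which is the p for Fasn, Cers4, Elovl6 and Mgst1, and 0.75 after adjustment over the 9 genes. For Plin2, the summed level was thus higher in 38w while the mean share of cells was lower by 5.77 points, and the difference in neither passed its test.

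The same comparison was made within cells that had a read of at least 3 of the 7 sebocyte markers, none of which is among the 9 genes. The rule took in 139 of 310 cells (44.8%), with 80 cells exactly at 3 markers and 113 at 1 fewer. It is a loose one, since Apoc1 and Mc5r were read in 71.9% and 72.6% of all cells, and the cells it takes in are not called sebocytes here. All 9 genes had a higher level in the marker cells than in the other cells over the whole series: Soat1 at 74.4 against 1.67 CPM, Far2 at 15.3 against 0.592, Cidea at 15.3 against 1.54, Elovl6 at 66.0 against 8.23, Scd1 at 280 against 51.9, Plin2 at 64.1 against 24.8, Mgst1 at 399 against 217, Fasn at 26.9 against 16.2 and Cers4 at 56.2 against 35.0 CPM. The order of the 2 classes held in each of the 4 replicates for Scd1, Soat1, Far2, Plin2 and Fasn, in 3 for Mgst1 and Cidea and in 2 for Elovl6 and Cers4. For Far2, however, the order came from 1 read in RepM and from 5.27 estimated reads in RepI. Of the Soat1 reads of RepI, 95.7% lay in 1 cell. All 3 cells with a read of the 9 genes were among the marker cells, so the levels above include them. They held 84.3% of the reads of Soat1, 89.9% of Far2 and 29.7% of Cers4. All marker cells together held 97.8%, 96.3% and 61.8% of these, against 50.2% of the reads of all genes. RepI and RepM held none of the 3 cells, and in both the marker cells were higher for Scd1, Plin2, Fasn, Soat1 and Far2. Scd1 stood at 83.1 against 64.9 CPM in RepI and at 124 against 32.7 CPM in RepM. Elovl6 and Cers4 were lower in the marker cells of both, with Cers4 at 39.4 against 60.3 and 21.2 against 24.1 CPM. Mgst1 and Cidea were each higher in 1 of these replicates and lower in the other. Levels of the marker cells without the 3 were not computed in RepL and RepN. There the order is not shown for the rest of the class.

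The marker cells made up 32.9% of RepI, 36% of RepL, 50% of RepM and 57.8% of RepN, a difference of −19.5 percentage points (exact two-sided permutation p = 0.33, the smallest possible). With markers read from thinned cells the difference was −0.196 points, and with a rule of at least 2 markers it was 2.88 points, so no order of the groups is read from it. Within the marker cells, 0 of 9961 genes passed the adjusted threshold (0%) and 628 (6.30%) had an unadjusted p below 0.05 in edgeR. All 9 lipid genes were tested there, none had an unadjusted p below 0.05, and their lowest adjusted p was 0.78. In the other cells, 0 of 10348 genes passed (0%) and 764 (7.38%) had an unadjusted p below 0.05. Soat1, Far2 and Cidea were too low there to be tested, and of the other 6 lipid genes none had an unadjusted p below 0.05.

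The other lipid genes were read on the same sums. Of 13 further genes of fatty acid synthesis, none passed edgeR's adjusted threshold, 6 were above 0 and the median log2 fold change was −0.27. Me1, which supplies NADPH for the synthesis, was at 6.99 and 12.1 CPM in 38w and at 85.7 and 35.2 in 38wUW (log2 fold change −2.43 ± 0.94 SE, edgeR adjusted p = 0.62). Tecr was at 438 and 121 CPM against 74.7 and 49.8 (log2 fold change 2.42 ± 0.95 SE, edgeR adjusted p = 0.62), but within RepI at 523 on C114 and 39.5 on C118. Elovl7 was at 82.7 and 63.6 against 179 and 142 CPM. Fasn was thus accompanied by values in both directions within its own pathway.

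Of 20 genes of sterol synthesis, none passed, and 9 (45%) had both 38w replicates below both 38wUW replicates and 2 above, against 26.2% and 12.6% of all genes tested. Their median log2 fold change was −0.35, against 0.12 for all genes tested. Msmo1, a sterol methyl oxidase, was at 29.6 and 60.9 CPM in 38w against 354 and 239 in 38wUW (log2 fold change −2.47 ± 0.90 SE, edgeR adjusted p = 0.62). Lss, which closes the sterol rings, and Sqle, which oxidises squalene, had log2 fold changes of −1.91 and −1.86. Within RepI, Sqle was at 7.99 CPM on C114 and 94.8 on C118, the latter above RepM (42.8 CPM). Of the 13 genes of triglycerides, wax esters and droplets, none passed, 5 (38.5%) were above and 2 below by the same measure, against 12.6% and 26.2% of all genes, and the median log2 fold change was 0.91. Bscl2, the droplet protein seipin, was at 113 and 24.7 CPM against 18.8 and 11.4 (log2 fold change 2.45 ± 0.99 SE, edgeR adjusted p = 0.62), and within RepI at 133 on C114 and 21.5 on C118. Mgll, a monoglyceride lipase, was at 1.23 and Dgat2, which makes triglycerides, at 0.55 on the log2 scale. On C118 of RepI, Mgll was at 12.2 CPM, below RepM (16.1) and RepN (17.9).

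Among 11 lipid regulators, none passed and the median log2 fold change was −0.01. Srebf1, the regulator of fatty acid synthesis genes, was at 37.9 and 23.1 CPM in 38w against 11.9 and 7.26 in 38wUW (log2 fold change 1.93 ± 0.96 SE, edgeR adjusted p = 0.63), and within RepI at 44.2 on C114 and 8.72 on C118. Srebf2, the regulator of sterol genes, was at 31.4 and 24.8 against 48.3 and 78.4 CPM (log2 fold change −0.92 ± 0.86 SE), and Insig2, which retains both in the endoplasmic reticulum, at 20.2 and 47.8 against 104 and 132 CPM. Of 12 ceramide genes beside Cers4, none passed, 5 (41.7%) lay below, against 26.2% of all genes, and 0 above. Their median was −0.40. The rule for naming, which asks for groups without overlap, named Ugcg (−3.05), Sgms2 (−2.02) and Cers5 (−0.87). On C118 of RepI, Sgms2 was at 44.2 and Cers5 at 92.5 CPM, each above the RepM value (31.5 and 50.3 CPM). Of 13 genes of peroxisomes and ether lipids, none passed, 6 (46.2%) lay below, against 26.2% of all genes, and 0 above. Their median was −0.35, with Far1 at 4.32 and 72.4 CPM against 100 and 106. Of the 84 tested genes of the study's sebaceous list, none passed, 44 were above 0, 13 (15.5%) lay above and 20 (23.8%) below without overlap, near the 12.6% and 26.2% of all genes, and the median was 0.14 against 0.12 for all genes tested. Aadac, an esterase of that list, had the largest change among the genes of the list without overlap that the rule could name, at 2.67 and 5.86 CPM in 38w against 20.1 and 59.2 in 38wUW (log2 fold change −2.97 ± 1.05 SE, edgeR adjusted p = 0.62). The 7 tested sebocyte markers had a median of 0.55, and none passed.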

How the data were processed

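Single tdTomato-positive cells of mouse tail epidermis were sequenced by Smart-seq2 (75 bp single-end reads, no molecular identifiers, so intervals and zero limits cover counting error only). The authors quantified reads per gene and cell with Salmon 0.13.1 against the Ensembl 101 transcriptome (GRCm38), and the deposited table holds estimated counts, unscaled, of which 3.60% were not whole. A filter on cells (at least 1000 genes, and a limit on mitochondrial reads) is given in the methods, but whether it was applied to this table is not stated. Its cells held 1996 to 5840 genes. Doublets were not called.

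Counts were summed per replicate (RepI and RepL of 38w, RepM and RepN of 38wUW), rounded and compared in R 4.3.3 by edgeR 4.0.16 (TMM, filterByExpr, quasi-likelihood F-test, Benjamini-Hochberg over all tested genes, threshold 0.05). DESeq2 1.42.0 was an alternative. CPM are counts per 1000000 of the summed or single-cell reads, and per-kilobase levels use the longest coding transcript in GENCODE vM21. Cells were thinned to 20000 reads for shares of cells, compared by exact permutation over replicates. Correlations used plate-centred log2(CPM + 10). The count model and the likeness measure were tested on simulated data.

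The 9 genes are given in full. Other genes were named by rule: protein family members, the 10 most like the 9 across cells, and from each lipid list the 3 with the largest change among genes whose average level was 4 or more in log2 CPM and with no overlap between groups. The genes that describe the 3 cells with all 9 genes, and the 5 least like the 9, were picked after their values were seen. The genes and lists were chosen with earlier results of these data known. The lists overlap: of the lipid list genes, those in the study's sebaceous list are counted in both. No column of the table was left without a sample. Some genes that the rule names are not reported here.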

Additional observations from a re-analysis of the deposited data

How the results depend on the processing

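None of the 9 genes that could be tested was called under any of the 16 alternatives of the comparison over all cells, or in the marker cells and the other cells under the 10 alternatives of each. Cidea could not be tested in thinned cells, nor Soat1, Far2 and Cidea in the other cells, where 4 of the 9 could be tested with a rule of at least 2 markers. Of the log2 fold changes of single genes, 121 of 143 kept their sign, with a lowest adjusted p of 0.25, and those of Fasn, Plin2 and Cers4 kept it throughout. When 1 replicate was left out, the log2 fold change ranged from −0.88 to 1.03 for Scd1, −1.06 to 0.27 for Mgst1, −1.51 to 3.21 for Soat1, −2.96 to 6.09 for Far2, −1.63 to 0.77 for Elovl6, −1.30 to 0.061 for Cidea, 0.90 to 2.13 for Fasn, 0.54 to 1.57 for Plin2 and 0.23 to 1.36 for Cers4. Scd1, Soat1 and Far2 were negative without RepL, Scd1 and Soat1 also without RepM, Mgst1 was positive without RepN, Elovl6 without RepI or RepN, and Cidea without RepI or RepM. With equal weight per cell, Scd1, Soat1 and Far2 turned to −0.33, −0.46 and −0.12, and in thinned cells Scd1 and Soat1 to −0.32 and −0.58. With RepI taken from C118 only, Mgst1 turned to 0.23, and from C114 only, Scd1 and Soat1 turned to −0.14 and −0.041. With plates as units and the batch tag as a replicate block, Scd1 and Soat1 turned to −0.31 and −1.18, and with the alternative batch tag as the block to −0.21 and −1.04. Over all genes, edgeR called 0 as reported, 83 were called by DESeq2, 1 without the filter on low counts, 1 with the batch tag as a replicate block, 4 with the alternative tag, and between 0 and 1215 when 1 replicate was left out (the highest 2 were 1215, with RepL omitted, and 169, with RepI omitted). Of the lipid list genes, 0 to 15 were called when 1 replicate was left out. The 15 were called with RepL omitted, when 1215 of all 12932 genes tested were called. That fit has 1 replicate in 38w. No share of the lists is given for it, so the 15 are not read as a result for lipid genes. The 2 batch tags share numbers between the groups, and the deviations of plates with the same number correlated at 0.18 for the batch tag and −0.18 for the other, so the tags do not settle a pairing. The share of marker cells differed by −19.5 points as reported and by 2.88 points with a rule of at least 2 markers. The number of the 9 genes with a higher mean share of cells in 38w was 4, and 2 to 5 when 1 replicate was left out. Of the 10 genes most like the 9, 2 were shared by rank correlation, 6 in thinned cells and 4 without the 3 cells with all 9 genes, an alternative added after seeing the data. Sums over all cells follow single cells where 1 cell holds most of the reads of a gene, and the causes of these changes were not tested.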
